A study of Mus musculus with 7 samples.

Results

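The genes described here are 48 genes of cell division, 29 that act in mitosis and 19 that act in DNA replication, measured in whole neocortex of CKO and wild-type (WT) mice. Each gene was named by its symbol, and the brightest probe set annotated to that symbol alone, by its mean over the 7 arrays, stood for each gene. A probe set of this kind existed for 47 of the 48, and all 47 lay above the limit on dim signals, so that 28 mitosis and 19 replication genes were tested among 16144 genes in all. Cyclin B1 (Ccnb1) had no probe set of its own and was not analysed here. The CKO group held 4 arrays (CKO 1, CKO 4, CKO 34 and CKO 43) from C57BL/6 mice with a genotype given as COUP-TFI_Nex-Cre. The WT group held 3 arrays (WT 6, WT 27 and WT 38) from C57BL/6 mice given as wild type. COUP-TFI, encoded by Nr2f1, is a nuclear receptor that patterns cortical areas, and Nex-Cre recombines from the Neurod6 locus in young excitatory neurons, after the divisions of radial glia. The labels give neither the age of the mice nor whether WT mice carried Cre or an altered COUP-TFI allele, and nothing in them ties an array to its own animal. Each p-value is thus set by how far these 7 samples scatter, part of which could be technical.

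In the developing neocortex, radial glia divide at the ventricle and intermediate progenitors divide above it, and the neurons they produce leave the cell cycle for good. A dividing cell loads the MCM helicase onto replication origins in G1, copies its DNA in S phase, and then makes cyclin B, CDK1 and the mitotic kinases that build the spindle and part the chromosomes. Replication genes are switched on at the end of G1 by E2F factors. Mitosis genes are switched on later by B-Myb, FoxM1 and the MuvB complex, which binds a short promoter element called CHR (cell cycle genes homology region), often near CCAAT boxes bound by NF-Y. In total RNA of a whole tissue, more dividing cells and more of these transcripts per dividing cell cannot be told apart.

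Values are log2 signals made by the authors with RMA, and every difference is CKO minus WT on that scale. Within each gene, array values are given in the order CKO 1, CKO 4, CKO 34 and CKO 43, then WT 6, WT 27 and WT 38. As a check of the labels, Nr2f1 (probe set 10410766) had 10.63, 10.79, 10.60 and 10.70 on the CKO arrays, against 11.08, 11.16 and 10.88 on the WT arrays, a difference of -0.36 (SE 0.074) with an adjusted p of 0.435 in limma. The groups did not overlap, and whether the probe set lies in an altered part of the gene is not known here. The neocortical factors Emx1, Tbr1 and Neurod2 had mean signals of 10.49, 12.77 and 13.13 in CKO and 10.42, 12.63 and 13.13 in WT, against a limit of 6.84 for dim probe sets. Neurod6, the locus that carries Nex-Cre, had means of 12.66 in CKO and 12.86 in WT. Its difference was -0.20 (SE 0.057, adjusted p 0.711 in limma), with every CKO array below every WT array. Of 7 neocortical projection neuron genes tested, 4 had a difference above 0 and 3 below, where 58.9% of all genes were above 0.

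No mitosis gene and no replication gene passed an adjusted p of 0.05 in limma over all 16144 genes, where 4 genes passed (0.0248%). The differences nevertheless lay mostly above 0. All 28 mitosis genes had a difference above 0, as did 17 of 19 replication genes and 58.9% of all genes tested. The median difference was 0.13 for mitosis genes, 0.06 for replication genes and 0.01 for all genes tested. An unadjusted p under 0.05 with a difference above 0 was found for 10 mitosis genes and 2 replication genes, and for 4.17% of all genes. Every CKO array lay above every WT array for 11 mitosis and 4 replication genes, against 5.39% of all genes. In the opposite direction the count was 0 of 47 members, both for an unadjusted p under 0.05 in limma (2.61% of all genes) and for every CKO array below every WT array (2.99%). Over both directions 6.79% of all genes had an unadjusted p under 0.05.

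WT 38 stood apart from the other arrays. Its signal was the lowest for 26 of 28 mitosis genes and 14 of 19 replication genes, and for 30.8% of all genes. Without WT 38 the difference was above 0 for 21 of 28 mitosis genes and 12 of 19 replication genes, against 53.1% of all genes. The median difference was then 0.06 for mitosis genes, 0.02 for replication genes and 0.01 for all genes. With this array left out, 6 mitosis genes and 1 replication gene had an unadjusted p under 0.05 with a difference above 0, against 5.0% of all genes. In the opposite direction the count was 0, against 5.9%, and 10.9% of all genes had such a p in either direction. Of the members 0 passed the adjustment in limma, as 1 gene of all did (0.00619%). All 4 CKO arrays lay above both remaining WT arrays for 12 mitosis and 4 replication genes, where 11.7% of all genes did so. All 4 lay below both for 2 replication genes, Cdc6 and Gins1, against 10.5% of all genes.

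**Figure D1:**
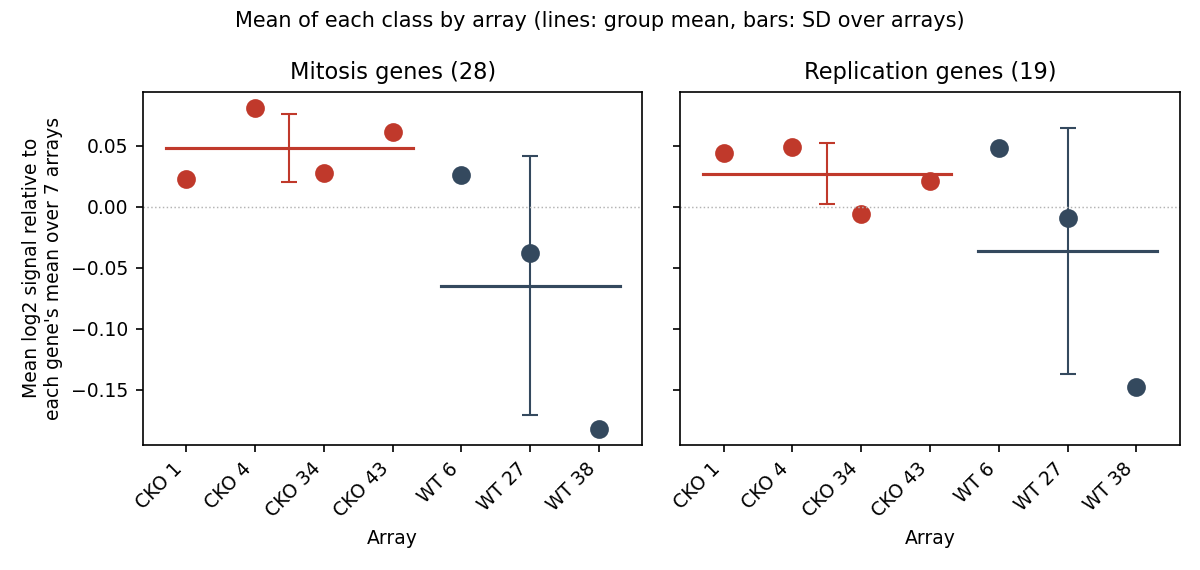
Mean log2 signal of the 28 mitosis genes (left) and the 19 replication genes (right) on each array, each gene taken relative to its own mean over the 7 arrays; points are arrays, lines are group means and bars are SD over 4 CKO or 3 WT arrays. WT 38 lies at -0.18 and -0.15, below every other array, while WT 6 lies among the CKO arrays in both panels.

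Averaged per array and taken relative to each gene's mean, the mitosis genes stood at 0.02, 0.08, 0.03 and 0.06 on CKO 1, CKO 4, CKO 34 and CKO 43, against 0.03, -0.04 and -0.18 on WT 6, WT 27 and WT 38. The CKO mean was 0.05 ± 0.028 (SD, n = 4) and the WT mean -0.06 ± 0.107 (SD, n = 3). The groups overlapped, since WT 6 (0.0258) lay just above CKO 1 (0.0233). The replication genes stood at 0.04, 0.05, -0.01 and 0.02 on CKO 1, CKO 4, CKO 34 and CKO 43, against 0.05, -0.01 and -0.15 on WT 6, WT 27 and WT 38. Their CKO mean was 0.03 ± 0.025 (SD, n = 4) and their WT mean -0.04 ± 0.101 (SD, n = 3). For replication genes WT 6 lay above CKO 1, CKO 34 and CKO 43, so only CKO 4 exceeded it. The CKO minus WT difference of the class mean was 0.11 for mitosis and 0.06 for replication genes, and without WT 38 it was 0.05 and 0.01. These means were given no test, because the genes were chosen with results of these arrays known.

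The classes did not sit at the same place on every array. The mitosis mean minus the replication mean was -0.02, 0.03, 0.03 and 0.04 on CKO 1, CKO 4, CKO 34 and CKO 43, against -0.02, -0.03 and -0.03 on WT 6, WT 27 and WT 38. Relative to each gene's mean over all arrays, the mitosis mean thus exceeded the replication mean on 3 of 4 CKO arrays. It was under the replication mean on all 3 WT arrays. Because of this centring the differences cancel over the arrays, so values above 0 on some force values below 0 on others. Only the order of the arrays can be read from them, and not which class had the higher signal. CKO 1 (-0.0212) was just above WT 6 (-0.0222). This difference was not tested.

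The promoters of both classes are shown because they differ in the letters that E2F and MuvB are known to read. RefSeq windows of 300 bases, 250 before to 50 after the annotated start on assembly GRCm38.p6, existed for 41 of the 48 genes. There were 28 windows for 26 mitosis genes and 17 windows for 15 replication genes. A gene with 2 annotated starts counts with 2 windows, and those of Ect2 and of Prc1 overlap and share motif matches. The motifs searched on both strands were CHR (TTTGAA or TTTAAA), the CCAAT box (CCAAT) and E2F (TTCCCGC, or else TTGGCGC, or else TTGCCGC, or else TTCGCGC). The last letter of the first E2F form can be the first letter of a CCAAT box, and E2F matches on both strands can overlap. The 120 bases just before the start are printed for 4 mitosis and 4 replication genes, chosen after their matches were seen, because they show these letters. Capitals mark motif matches that lie wholly within the stretch, and each sequence runs 5′ to 3′ on the strand of the gene.
Plk1: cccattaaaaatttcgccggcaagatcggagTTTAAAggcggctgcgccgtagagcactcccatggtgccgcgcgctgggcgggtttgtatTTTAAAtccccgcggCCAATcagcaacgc
Top2a: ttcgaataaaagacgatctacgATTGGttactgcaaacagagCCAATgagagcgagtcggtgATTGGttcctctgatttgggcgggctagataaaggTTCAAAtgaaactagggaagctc
Cdc20: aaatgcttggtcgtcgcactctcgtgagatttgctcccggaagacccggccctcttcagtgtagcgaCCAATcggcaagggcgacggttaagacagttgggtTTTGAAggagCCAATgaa
Cdk1: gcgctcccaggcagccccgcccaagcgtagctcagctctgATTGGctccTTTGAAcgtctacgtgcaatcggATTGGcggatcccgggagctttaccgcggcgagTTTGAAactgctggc
Uhrf1: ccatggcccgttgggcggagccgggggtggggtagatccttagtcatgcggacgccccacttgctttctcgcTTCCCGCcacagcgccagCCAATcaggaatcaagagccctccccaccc
Mcm3: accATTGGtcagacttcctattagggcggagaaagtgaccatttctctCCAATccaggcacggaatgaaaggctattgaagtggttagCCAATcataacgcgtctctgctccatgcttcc
Mcm6: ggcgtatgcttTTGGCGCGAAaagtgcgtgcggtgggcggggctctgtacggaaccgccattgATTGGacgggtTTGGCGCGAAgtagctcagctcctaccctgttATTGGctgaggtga
Prim1: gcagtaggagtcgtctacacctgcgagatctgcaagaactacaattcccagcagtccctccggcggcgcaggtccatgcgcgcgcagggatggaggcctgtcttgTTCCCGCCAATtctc
The stretches lie at chr7:122159315-122159434 (Plk1, plus strand), chr11:99024190-99024309 (Top2a, minus), chr4:118437344-118437463 (Cdc20, minus), chr10:69352913-69353032 (Cdk1, minus), chr17:56303217-56303336 (Uhrf1, plus, the first of 2 annotated starts), chr1:20820313-20820432 (Mcm3, minus), chr1:128359706-128359825 (Mcm6, minus) and chr10:128015095-128015214 (Prim1, plus). Plk1, Top2a (on the other strand), Cdc20 and Cdk1 each hold CHR letters close to the start together with at least 1 CCAAT box. Uhrf1, Mcm6 and Prim1 hold E2F letters, and in Prim1 the E2F match shares its last letter with a CCAAT box. In Mcm6 2 pairs of E2F matches on opposite strands overlap. Mcm3 shows 3 CCAAT boxes here, and its E2F letters lie just after the start. The window of Cdk1 also holds E2F letters, upstream of the printed stretch, and the window of the second Uhrf1 start holds CHR letters.

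CHR letters were found in 25 of 28 mitosis windows (89.3%) and 6 of 17 replication windows (35.3%), against 19.9% of 16016 windows of genes tested and 27.6% of all 32851 windows. E2F letters were found in 6 mitosis windows (21.4%) and 12 replication windows (70.6%), against 14.6% of windows of genes tested and 9.57% of all. CCAAT boxes were common to both classes, in 22 mitosis windows (78.6%) and 14 replication windows (82.4%), against 36.9% of windows of genes tested and 37.4% of all. CHR and CCAAT stood together in 21 mitosis windows (75.0%) and 5 replication windows (29.4%), against 7.74% of windows of genes tested. A match describes letters in the window and does not show binding, and these shares were not tested.

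**Figure D2:**
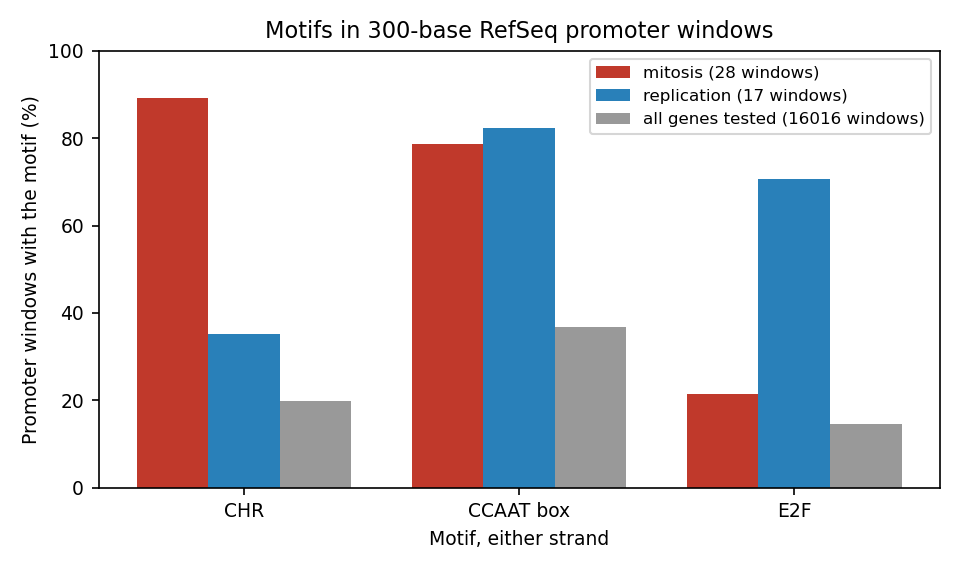
Share of 300-base RefSeq promoter windows, in percent, that hold each motif on either strand, for 28 windows of mitosis genes, 17 of replication genes and 16016 of all genes tested. CHR is held by 89.3% of mitosis windows, E2F by 70.6% of replication windows, and CCAAT boxes are frequent in both.

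The 4 mitotic kinases and passenger genes were all highest on CKO 4 and lowest on WT 38. Plk1 (probe set 10557156), the polo-like kinase that drives entry into mitosis and centrosome maturation, had 11.59, 11.65, 11.55 and 11.57 on the CKO arrays, against 11.39, 11.47 and 11.34 on the WT arrays. All 4 CKO arrays lay above all 3 WT arrays, and the difference was 0.19 (SE 0.047), a ratio of 1.14, with an adjusted p of 0.65 in limma. It stayed at 0.16 without WT 38. Aurka, the centrosomal Aurora kinase, differed by 0.06 (SE 0.037), and Aurkb, the Aurora kinase of the chromosomal passenger complex, by 0.14 (SE 0.063). Birc5, which encodes survivin, the passenger subunit that brings Aurora B to centromeres, differed by 0.09 (SE 0.054). Only Aurka of these 3 had groups that did not overlap, and without WT 38 their differences were 0.05, 0.08 and 0.03.

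Among spindle proteins, Aspm (probe set 10350392), a spindle pole protein whose loss causes microcephaly, had 10.19, 10.26, 10.28 and 10.20 on the CKO arrays, against 10.02, 10.10 and 10.07 on the WT arrays. Its groups did not overlap, its lowest array was WT 6 and not WT 38, and its difference of 0.17 (SE 0.041) had the smallest p of all 47 members (adjusted p 0.648 in limma). The difference was 0.17 without WT 38. Tpx2 (probe set 10477187), which activates Aurora A and nucleates spindle microtubules, had 10.74, 10.74, 10.77 and 10.81 on the CKO arrays, against 10.70, 10.62 and 10.60 on the WT arrays. The groups did not overlap here either, and the difference was 0.13 (SE 0.041, adjusted p 0.711 in limma), or 0.11 without WT 38. Nusap1, a microtubule-bundling protein of the spindle, differed by 0.14 (SE 0.062), Ect2, the exchange factor that activates RhoA for cytokinesis, by 0.13 (SE 0.078), and Prc1, which bundles the midzone of the anaphase spindle, by 0.08 (SE 0.077). The WT values of Ect2 ran from 10.84 to 11.19, and those of Prc1 from 9.79 to 10.16. In both genes WT 6 lay near or above the top CKO array, and without WT 38 the differences were 0.05 and -0.02.

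Top2a (probe set 10390707), the topoisomerase that untangles replicated chromosomes, had 11.32, 11.37, 11.34 and 11.40 on the CKO arrays, against 11.29, 11.22 and 11.17 on the WT arrays. CKO arrays again all lay above WT arrays, with a difference of 0.13 (SE 0.042) and an adjusted p of 0.711 in limma, or 0.10 without WT 38. A second Top2a probe set was dim, with a mean of 4.67, below the limit of 6.84, and was not used. With both probe sets averaged, the Top2a difference was 0.07 (adjusted p 0.860 in limma). Mki67, the gene of the Ki-67 antigen that coats mitotic chromosomes, differed by 0.16 (SE 0.062) with overlap, since CKO 1 at 11.60 lay under WT 6 at 11.67.

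Of the motor proteins, Kif23 (probe set 10594251), a kinesin of the central spindle needed for cytokinesis, had 10.59, 10.70, 10.57 and 10.64 on the CKO arrays, against 10.53, 10.48 and 10.45 on the WT arrays. Its groups did not overlap and its difference was 0.13 (SE 0.045, adjusted p 0.711 in limma), or 0.12 without WT 38. Kif11, the motor that separates spindle poles, differed by 0.15 (SE 0.064), and Kif15, which backs it up, by 0.09 (SE 0.040), both without overlap. Kif4, a chromosome-bound kinesin and the member with the largest difference, and Kif20b, a midzone kinesin of dividing cortical progenitors, were picked out after their values were seen. Kif4 had 9.34, 9.47, 9.34 and 9.46 on the CKO arrays, against 9.33, 9.42 and 8.82 on the WT arrays. Its difference of 0.22 (SE 0.131) was 0.03 without WT 38, the lowest array by far. Kif20b differed by 0.03 (SE 0.092) over all arrays and by -0.10 without WT 38.

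At the kinetochore and the spindle checkpoint, all 7 members had a difference above 0, and 4 of 7 without WT 38. The share of all genes was 58.9%, or 53.1% without WT 38. Bub1, a checkpoint kinase, differed by 0.11 (SE 0.047), and it was the 1 mitosis gene for which WT 38 at 10.94 was the highest WT array, within the range of CKO arrays; without WT 38 the difference was 0.15. Bub1b, the checkpoint inhibitor BubR1, differed by 0.16 (SE 0.078), and Cenpe, a kinetochore motor that brings chromosomes to the spindle equator, by 0.18 (SE 0.074). Ttk, the checkpoint kinase MPS1, had 9.10, 9.12, 9.13 and 9.09 on the CKO arrays, against 9.08, 9.09 and 8.66 on the WT arrays. The groups did not overlap, but 6 of its 7 values lay between 9.08 and 9.13, and its difference of 0.17 (SE 0.097) was 0.03 without WT 38. Nuf2 and Ndc80, subunits of the complex that grips microtubules, differed by 0.09 (SE 0.075) and 0.03 (SE 0.052), and Cenpf, a kinetochore protein of G2 and mitosis, by 0.03 (SE 0.051). Without WT 38 these 3 stood at -0.004, -0.02 and -0.01.

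Of the cyclins measured, cyclin A2 (Ccna2), which acts in S phase and G2, differed by 0.11 (SE 0.050) without overlap, and cyclin B2 (Ccnb2) by 0.05 (SE 0.041) with overlap. Cdk1, the kinase that cyclin B activates, differed by 0.05 (SE 0.080), with its highest value on WT 6 (11.46) and its lowest on WT 38 (11.09). Without WT 38 the differences of Ccna2, Ccnb2 and Cdk1 were 0.06, 0.01 and -0.04. Cdc20 (probe set 10515744), which turns the anaphase-promoting complex on at anaphase, had 10.55, 10.63, 10.61 and 10.69 on the CKO arrays, against 10.53, 10.54 and 10.35 on the WT arrays. Its groups did not overlap, and its difference was 0.15 (SE 0.058) with an adjusted p of 0.723 in limma, or 0.09 without WT 38. Ube2c, the ubiquitin-conjugating enzyme of that complex, had the smallest difference of the mitosis genes, 0.01 (SE 0.070), and its highest array was WT 6. Its difference was -0.04 without WT 38.

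**Figure D3:**
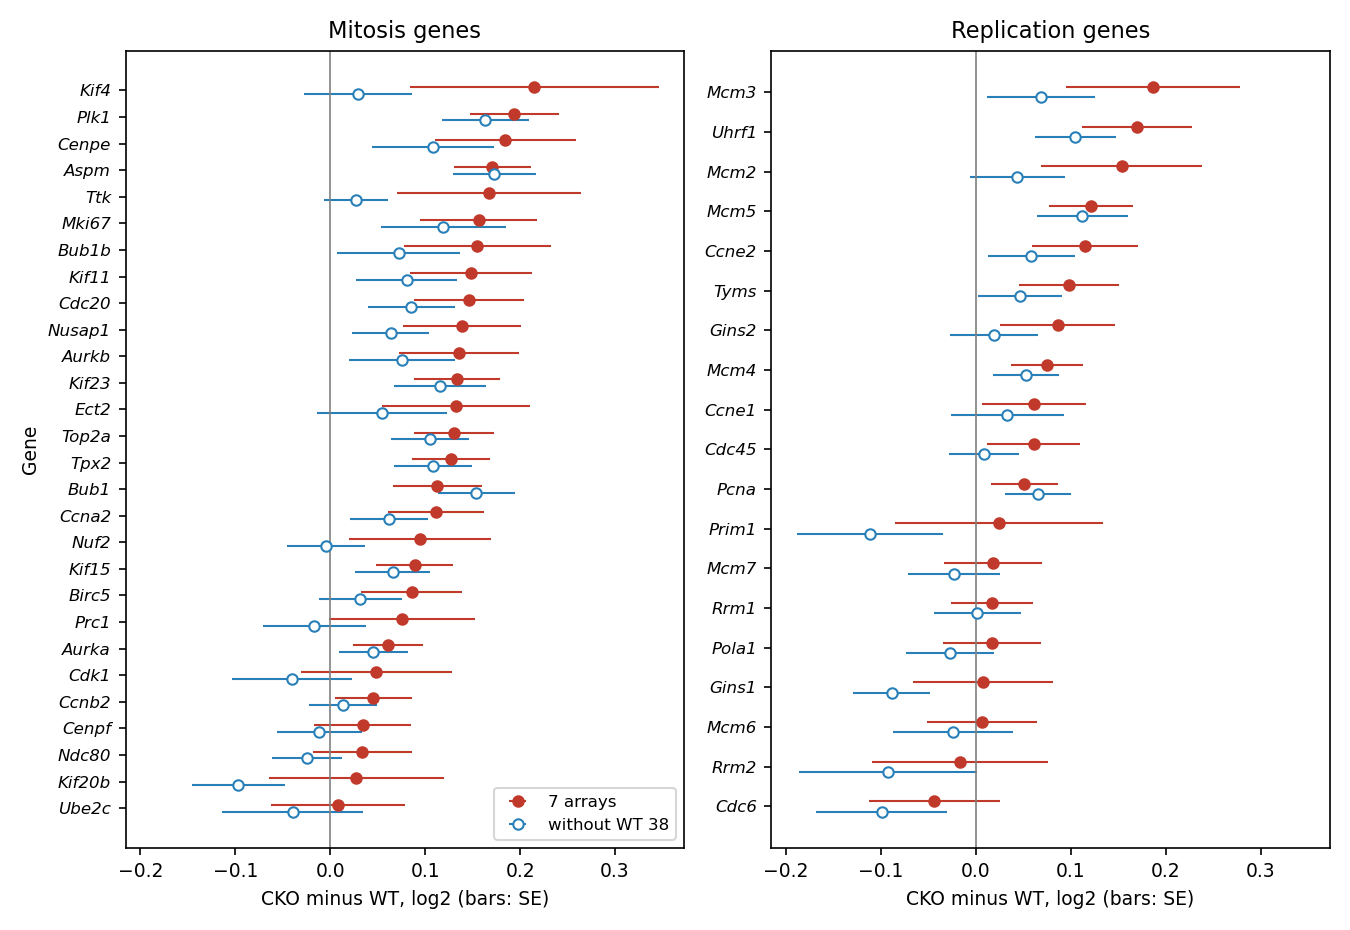
CKO minus WT difference in log2 signal for each mitosis gene (left) and replication gene (right), with all 7 arrays (filled) and without WT 38 (open); bars are limma's SE. Filled points lie above 0 for 45 of 47 genes (58.9% of all genes tested) and open points for 33 of 47 (53.1%). Kif4, Ttk and Prim1 move down most when WT 38 is left out, while Aspm and Mcm5 hardly move.

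In the replication class, the MCM helicase subunits, which unwind DNA at the fork, all had a difference above 0 (6 of 6). Without WT 38, 4 of 6 did. The share of all genes was 58.9%, or 53.1% without WT 38. Mcm5 (probe set 10572906) had 11.21, 11.23, 11.15 and 11.10 on the CKO arrays, against 11.03, 11.08 and 11.03 on the WT arrays. No CKO array lay below a WT array, and the difference of 0.12 (SE 0.044) had an adjusted p of 0.722 in limma and was 0.11 without WT 38, but 0.06 within the arrays CKO 34, CKO 43, WT 27 and WT 38. Mcm4 (probe set 10437945) had 10.59, 10.56, 10.53 and 10.58 on the CKO arrays, against 10.50, 10.52 and 10.44 on the WT arrays. It too was without overlap, with a difference of 0.07 (SE 0.038, adjusted p 0.729 in limma) and 0.05 without WT 38. Mcm3 (probe set 10353420) had 9.98, 10.12, 9.92 and 10.03 on the CKO arrays, against 9.94, 9.95 and 9.59 on the WT arrays. CKO 34 lay below WT 6 and WT 27, and the difference of 0.19 (SE 0.092, adjusted p 0.727 in limma) was 0.07 without WT 38. Mcm2 was alike, with 0.15 (SE 0.085) over all arrays and 0.04 without WT 38. Mcm6 and Mcm7 differed by 0.01 (SE 0.058) and 0.02 (SE 0.052), and both by -0.02 without WT 38.

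Of the 4 genes that load and switch on the helicase, 3 had a difference above 0, against 58.9% of all genes. Cdc6 (probe set 10381072), the loader of the MCM ring and 1 of 2 members with a difference below 0, had 8.61, 8.57, 8.39 and 8.60 on the CKO arrays, against 8.68, 8.61 and 8.48 on the WT arrays. CKO 34 was its lowest array, and the difference was -0.04 (SE 0.069, adjusted p 0.886 in limma). Cdc45, Gins1 and Gins2, which complete the active helicase, differed by 0.06 (SE 0.049), 0.01 (SE 0.074) and 0.09 (SE 0.061), and without WT 38 by 0.01, -0.09 and 0.02. All 3 overlapped between the groups.

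Of the enzymes at the fork, Pcna, the sliding clamp, differed by 0.05 (SE 0.036) without overlap. Its 2 probe sets gave 0.05 and 0.06 and nearly the same signal on each array, so whether they measure separate loci is not known here. Pola1, the catalytic subunit of polymerase alpha, differed by 0.02 (SE 0.052), and by -0.03 without WT 38. Prim1, the primase that makes the first RNA primers, was singled out for its spread and had 9.58, 9.54, 9.62 and 9.61 on the CKO arrays, against 9.84, 9.56 and 9.29 on the WT arrays. Its highest and lowest arrays were both WT, and its difference was 0.02 (SE 0.110) over all arrays and -0.11 without WT 38.

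Of the 3 nucleotide supply genes, 2 had a difference above 0, against 58.9% of all genes. Tyms (probe set 10528915), the thymidylate synthase gene, had 10.32, 10.42, 10.36 and 10.44 on the CKO arrays, against 10.33, 10.35 and 10.18 on the WT arrays. The groups overlapped through CKO 1, and the difference was 0.10 (SE 0.053, adjusted p 0.739 in limma), or 0.05 without WT 38. Rrm2 (probe set 10394978), the S-phase subunit of ribonucleotide reductase, had 11.50, 11.51, 11.34 and 11.33 on the CKO arrays, against 11.66, 11.36 and 11.29 on the WT arrays. WT 6 was the highest and WT 38 the lowest array, and the difference was -0.02 (SE 0.092, adjusted p 0.976 in limma). Rrm1, the large subunit, differed by 0.02 (SE 0.043).

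Cyclin E2 (Ccne2, probe set 10503264), which starts S phase with CDK2, had 9.24, 9.21, 9.20 and 9.32 on the CKO arrays, against 9.16, 9.21 and 9.01 on the WT arrays. CKO 34 lay just below WT 27, so the groups overlapped, and the difference was 0.11 (SE 0.056, adjusted p 0.727 in limma), or 0.06 without WT 38. Cyclin E1 (Ccne1) differed by 0.06 (SE 0.055). Uhrf1 (probe set 10446074), which recruits the maintenance DNA methyltransferase to newly copied DNA, had 10.58, 10.52, 10.47 and 10.50 on the CKO arrays, against 10.44, 10.39 and 10.22 on the WT arrays. All CKO arrays lay above all WT arrays, and its difference of 0.17 (SE 0.058) had the smallest p among replication genes (adjusted p 0.711 in limma). It was 0.10 without WT 38.

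**Figure D4:**
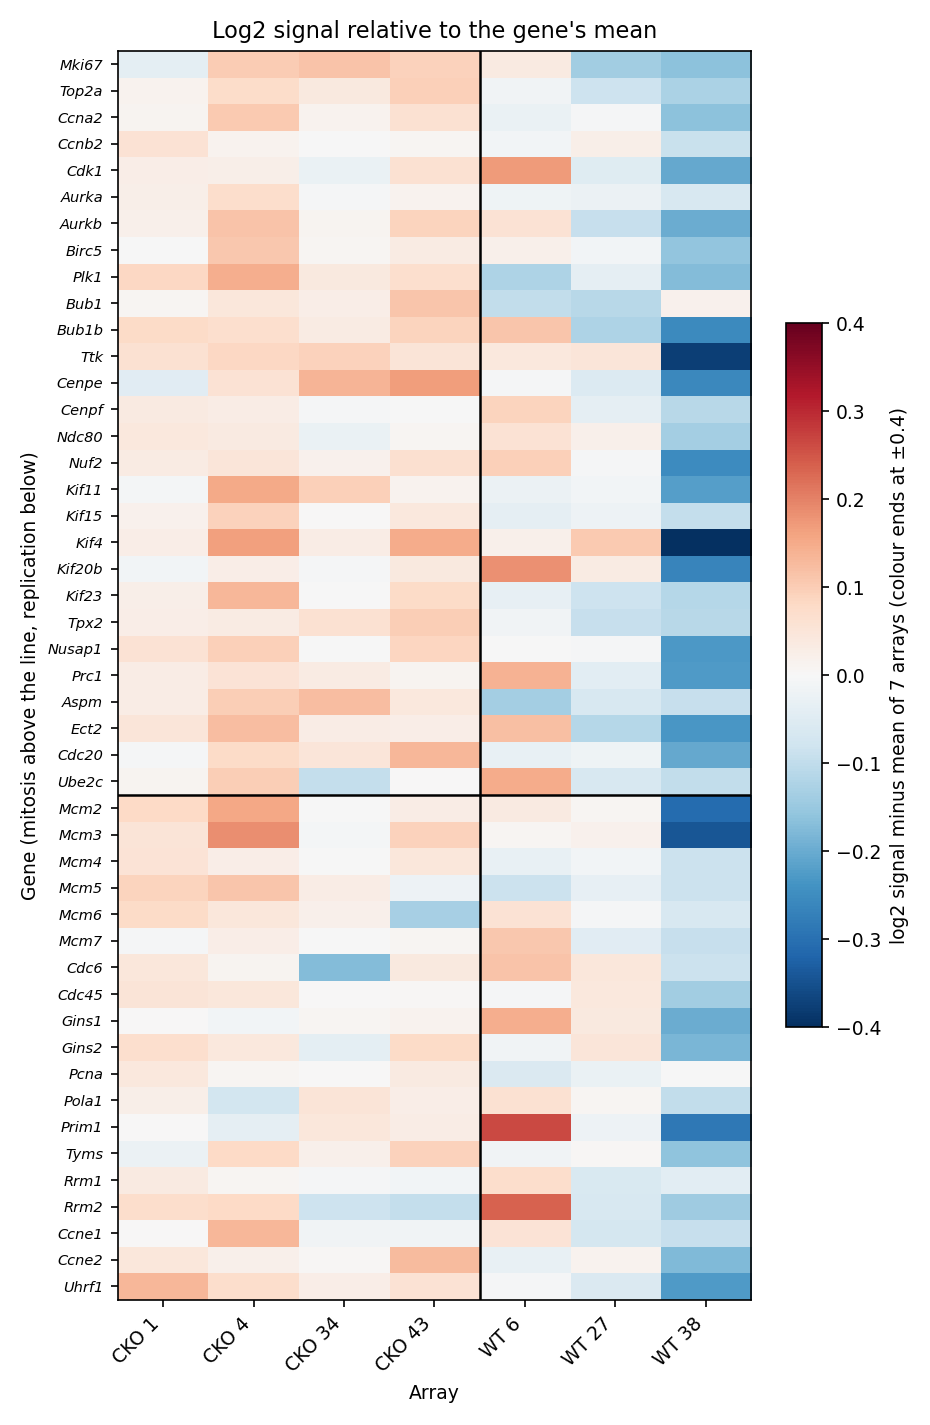
Log2 signal of the 47 genes (rows, mitosis above the line and replication below) on the 7 arrays (columns), relative to each gene's mean over the arrays; red is above and blue below the mean, and colours end at ±0.4. The WT 38 column is blue for most genes of both classes, and WT 6 is reddest for Prim1, Rrm2, Kif20b and Cdk1.

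With WT 38 included, the spread between WT arrays was wider than between CKO arrays. The WT SD exceeded the CKO SD for 24 of 28 mitosis genes and 16 of 19 replication genes, and for 69.2% of all genes. The median SD over arrays was 0.044 in CKO and 0.107 in WT for mitosis genes, and 0.053 in CKO and 0.100 in WT for replication genes. Over all genes tested it was 0.049 in CKO and 0.080 in WT. For WT 6 and WT 27 alone the median SD was 0.050 for mitosis genes, 0.038 for replication genes and 0.056 for all genes. At the other end from WT 38, WT 6 was the highest of the 7 arrays for 8 mitosis and 7 replication genes (18.3% of all genes), and CKO 4 for 11 and 4 (18.9%). WT 27 was the highest for none of the 47 members, against 18.9% of all genes.

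The array identifiers in the labels split the arrays into sets by their leading digits. CKO 1 and CKO 4 formed 1 set, CKO 34, CKO 43, WT 27 and WT 38 another, and WT 6 stood alone; what the sets stand for is not stated. Within the mixed set the difference was above 0 for 28 of 28 mitosis genes (median 0.16) and 17 of 19 replication genes (median 0.07), against 46.4% of all genes. With WT 6 added, which shares the middle digits of that set, the counts were 27 of 28 (median 0.12) and 16 of 19 (median 0.05), against 47.0% of all genes. WT 38 is in both subsets, and no member passed the adjustment in limma within the 4 arrays (0.0% of all genes) or the 5 arrays (0.0124%).

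Other genes of the cell cycle shared the lowest array with the members. Averaged per list, WT 38 was the lowest array for all 8 lists examined, and also over all genes tested, at -0.03. The highest array varied between lists. It was WT 6 for other replication genes (0.07) and for other kinetochore and checkpoint genes (0.08). CKO 4, the highest for both member classes, was so only for condensin, cohesin and separase genes and for the regulators described below. The counts are read against 58.9% of all genes with a difference above 0, or 53.1% without WT 38. Of 43 other replication genes, 32 had a difference above 0 (median 0.04), but 16 did without WT 38 (median -0.02). Of 25 other kinetochore and checkpoint genes, 19 were above 0 (median 0.07), and 15 without WT 38 (median 0.01). Of 27 other spindle, centriole and cytokinesis genes, 26 were above 0 (median 0.11), and 21 without WT 38 (median 0.03). Of 13 genes of CDK1 activation and mitotic exit, 12 were above 0 and 9 without WT 38. Of 19 condensin, cohesin and separase genes, 17 were above 0 and 15 without WT 38; Esco2, the acetyltransferase that makes cohesion in S phase, differed by 0.25 (SE 0.064). No gene of these 5 lists passed the adjustment in limma. An unadjusted p under 0.05 with a difference above 0 was found for 6, 3, 7, 1 and 4 genes of the lists in this order (4.17% of all genes), and in the opposite direction for 0 (2.61%). Without WT 38 these counts were 2, 2, 0, 0 and 1 above 0 (5.0% of all genes) and 1, 2, 0, 0 and 0 below it (5.9%).

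The regulators of these programmes gave no call either. Of 20 genes for E2F factors, pocket proteins, MuvB, B-Myb and FoxM1, 15 had a difference above 0, against 58.9% of all genes. Without WT 38 it was 12 of 20, against 53.1%. An unadjusted p under 0.05 with a difference above 0 was found for 5 (4.17% of all genes), and every CKO array lay above every WT array for 8 (5.39%). Foxm1, the activator of mitosis genes, had 10.63, 10.70, 10.58 and 10.67 on the CKO arrays, against 10.50, 10.47 and 10.30 on the WT arrays. Its groups did not overlap, and the difference was 0.22 (SE 0.056, adjusted p 0.683 in limma), or 0.16 without WT 38. The atypical E2F repressors E2f7 and E2f8 differed by 0.14 (SE 0.037) and 0.24 (SE 0.067), both without overlap, and by 0.13 and 0.23 without WT 38. Of 6 genes for G1 cyclins and their kinases 4 were above 0, with cyclin D1 (Ccnd1) at 0.13 (SE 0.072). Of 6 CDK inhibitors tested 4 were above 0, and Cdkn2c, which encodes the CDK4 and CDK6 inhibitor p18, differed by 0.13 (SE 0.040) in the same direction as the division genes. No gene of these 3 lists passed the adjustment in limma.

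Markers of the dividing cell types followed the members in part. For 14 radial glia markers the mean per array was 0.07, 0.08, -0.001 and 0.03 on CKO 1, CKO 4, CKO 34 and CKO 43, against -0.05, -0.04 and -0.09 on WT 6, WT 27 and WT 38. All 3 WT arrays were below all 4 CKO arrays, WT 6 among them. For replication genes only CKO 4 exceeded WT 6, and for mitosis genes WT 6 lay within the range of the CKO arrays. Sox2, a transcription factor of neural progenitors, differed by 0.20 (SE 0.048) and was lowest on WT 6. For 10 intermediate progenitor markers the mean was 0.01, 0.13, -0.06 and 0.06 on CKO 1, CKO 4, CKO 34 and CKO 43, against -0.07, 0.05 and -0.13 on WT 6, WT 27 and WT 38. CKO 34 lay below WT 27, and Eomes, the defining factor of these cells, differed by 0.06 (SE 0.063). Their part in the differences of division genes was not tested.

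Red blood cell genes followed WT 38 as well. Over the 5 tested of 10 listed, the mean was 0.15, 0.32, 0.02 and -0.07 on CKO 1, CKO 4, CKO 34 and CKO 43, against -0.04, 0.12 and -0.49 on WT 6, WT 27 and WT 38, with Hbb-y, an embryonic globin gene, at 10.16, 10.97, 9.88 and 9.77 on the CKO arrays, against 9.92, 10.10 and 8.30 on the WT arrays. Hbb-y had the largest difference of the red blood cell genes (0.75) and weighs heavily in their mean, while their median difference was 0.13. WT 38 was the lowest array for 4 of these 5 genes, against 30.8% of all genes. Of 10 pan-neuronal markers, 4 had a difference above 0 (median -0.02), against 58.9% of all genes. Without WT 38 it was 6 of 10 (median 0.01), against 53.1%. The mean of these markers was 0.01, -0.17, -0.01 and -0.13 on CKO 1, CKO 4, CKO 34 and CKO 43, against 0.01, 0.14 and 0.14 on WT 6, WT 27 and WT 38. The neurofilament genes Nefm and Nefl had the differences furthest from 0 in this list (-0.77 and -0.98), and they weigh heavily in its mean. Endothelial and mural (10), astrocyte (10) and microglial (9) lists were also lowest on WT 38, at -0.06, -0.09 and -0.06. What part any of these cells had in the members' signals was not tested.

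**Figure D5:**
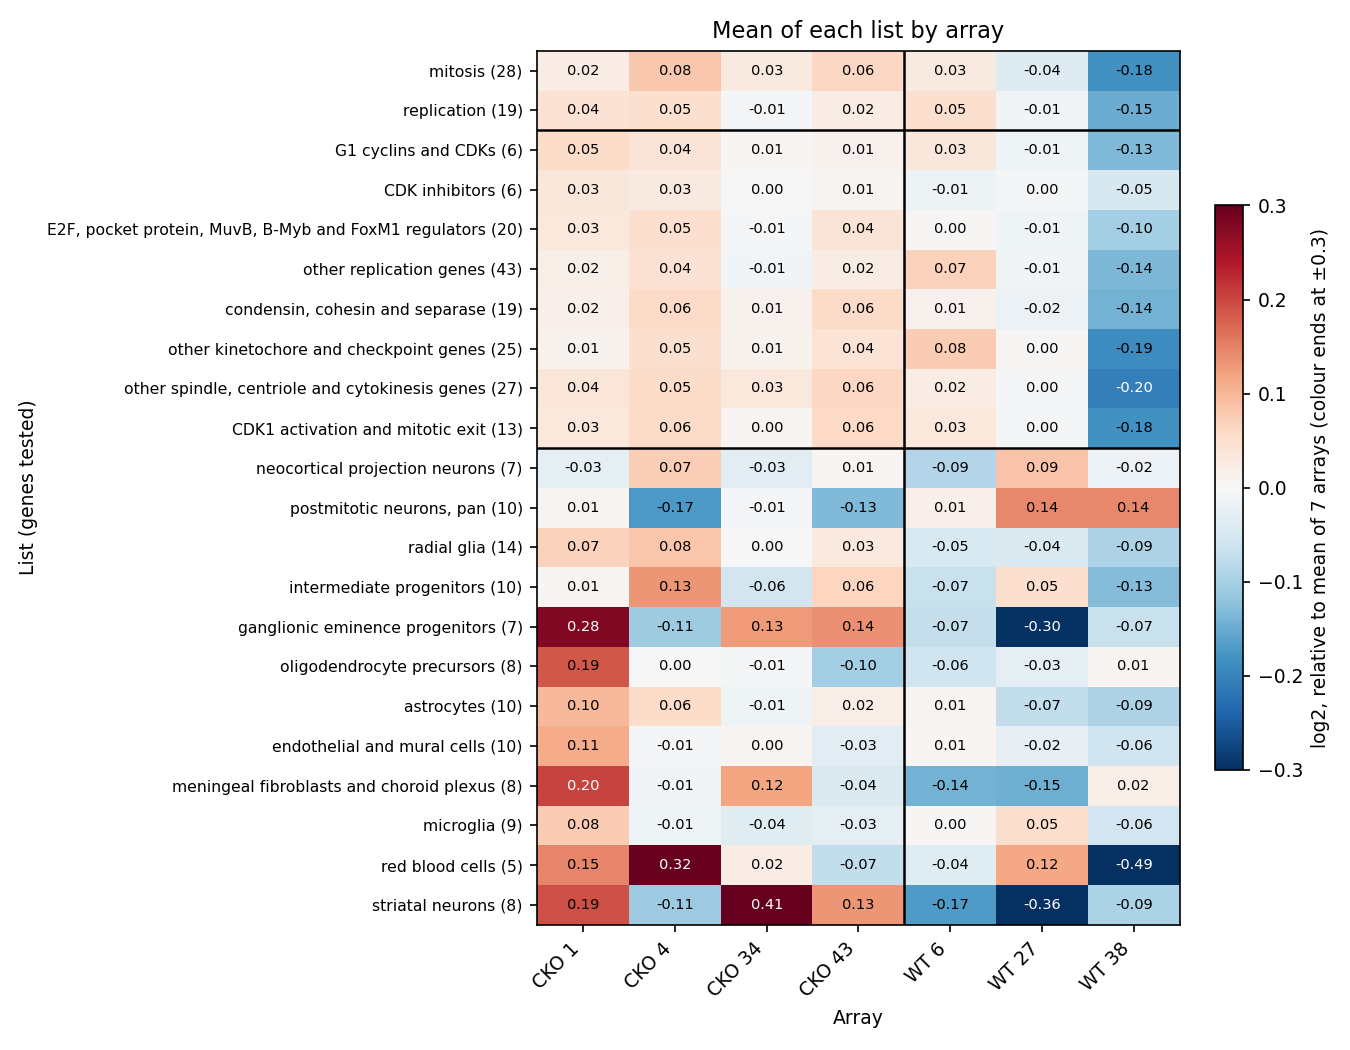
Mean log2 signal of each list (rows, with the number of genes tested) on each array (columns), each gene relative to its mean over the 7 arrays; numbers are the plotted values and colours end at ±0.3. The 2 member classes and the 8 other cell cycle lists are all lowest on WT 38, as are radial glia, intermediate progenitor and red blood cell genes, while ganglionic eminence and striatal genes are lowest on WT 27.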

How the data were processed

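Total RNA (RIN 10, input 0.2 µg) from 7 samples was hybridised to 7 one-colour Affymetrix arrays. The deposited values are log2 signals, which the authors computed by RMA; the software was Affymetrix Expression Console per the submitters' notes, with version and genome build not stated in these sources. The 7 columns shared nearly 1 distribution, with an array median of 8.23, and no arrays were identical. The number of arrays limits the precision.

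The platform annotation gave 1 symbol to 21786 of 35468 probe sets, several to 1621 and none to 12061; names were checked through RefSeq GRCm38.p6 (21695 matched, 0 symbols changed). Probe sets with a mean below the 25th percentile (6.84) were left out and the brightest stood for each gene. CKO and WT were compared with limma 3.58.1 (lmFit, eBayes) run in R 4.3.3 without covariates; the residual degrees of freedom were 5 and the prior ones 3.28. Benjamini-Hochberg adjustment ran over all 16144 genes, and SE is limma's. The fit was checked on simulated data with independent noise. At an adjusted p of 0.05 in limma it recovered 61.2% of genes changed by 0.3 log2 and 98.5% of those changed by 0.6. The noise took the moderated variances of the real fit, shuffled over genes, and 67 genes were changed by each of these sizes. Many changed genes ease the adjustment, and 4 genes passed it in the real data. The shares may therefore overstate recovery in these arrays. Changes as small as those of the members, at most 0.22, were not simulated. Figures used matplotlib 3.10.9.

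The members and lists were chosen with earlier results of these data known. Array values were given for Nr2f1, for the 6 genes of each class with the smallest p and for members with a difference below 0. From other lists up to 3 genes with the smallest p or a defining marker were named. Not all defining markers were named, and for some cell type lists none was. Members outside this rule with array values were chosen after these were seen. The alternatives were median centring, other filters, averaged probe sets (which include dim ones of the same gene), trend and robust variance, array weights, array sets as blocks or alone, and leaving out each array.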

Additional observations from a re-analysis of the deposited data

Results flagged for a closer look

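In the CKO group, 3 genes had 1 array far from the other 3 by Dixon's test, which divides the gap to the nearest array by the range of the 4. They were Mki67, with CKO 1 low at 11.60 log2 (gap over range 0.862), Cdc6, with CKO 34 low at 8.39 (0.840), and Ccne1, with CKO 4 high at 9.87 (0.900). The test was made on 49 groups of 4 CKO values, and chance alone flags about 1 in 20. WT groups of 3 arrays were not tested in this way.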

How the results depend on the processing

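No member passed an adjusted p of 0.05 under any alternative run, in limma. The number of mitosis genes with an unadjusted p under 0.05 was 10 (6.79% of all genes), and 6 (2.66%) within CKO 34, CKO 43 and the 3 WT arrays. Leaving out 1 array gave 5 to 16, with 5 without CKO 4 (3.82% of all genes), CKO 34 (6.93%) or CKO 43 (5.74%), 6 without WT 38 (10.9%) and 16 without WT 6 (6.58%). For replication genes that number was 2. It was 1 with array sets as a fixed block (3.78% of all genes) or with array weights (4.60%), and 0 within the 5 arrays above (2.66%) or the 4 without WT 6 (3.01%); leaving out 1 array gave 1 to 4, with 1 without CKO 1 (4.94%), CKO 4, WT 6 or WT 38 and 4 without WT 27 (10.8%). The median difference of mitosis genes ran from 0.06 to 0.16 and that of replication genes from 0.02 to 0.10, in each case lowest without WT 38 and above 0 throughout. Among the members named for a small p or a difference below 0, the differences of 2 changed sign. Cdc6 was at -0.04 and ran from -0.0996 (without WT 38) to 0.00691 (without CKO 34), with 0.000435 without WT 6. Rrm2 was at -0.02 and ran from -0.0928 (without WT 38) to 0.0959 (without WT 6), with 0.00791 without CKO 34, 0.0121 without CKO 43, and 0.0146 both with array sets as a fixed block and within CKO 34, CKO 43, WT 27 and WT 38. The fixed block and the 4-array setting give the same difference by design, since the other sets hold 1 group each. The cause of the sign changes was not tested. No other member named by that rule changed sign. The remaining members were not followed one by one over all alternatives. Of all 47 members, 45 had a difference above 0 over the 7 arrays and 33 without WT 38, so members outside the rule, such as Cdk1, Kif20b and Prim1, also changed sign. No paired analysis was possible because CKO and WT samples shared no replicate numbers.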

Other observations

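Genes of ganglionic eminence progenitors, the dividing cells of the ventral forebrain, followed another order of arrays than division genes did. Over the 7 tested of 8 listed, the mean per array was 0.28, -0.11, 0.13 and 0.14 on CKO 1, CKO 4, CKO 34 and CKO 43, against -0.07, -0.30 and -0.07 on WT 6, WT 27 and WT 38. WT 27 and CKO 4 were the lowest arrays, while CKO 4 was the highest for mitosis genes. Dlx2, a homeobox factor of ventral progenitors and young interneurons, had 11.56, 10.97, 11.69 and 11.70 on the CKO arrays, against 11.05, 10.74 and 11.12 on the WT arrays, and its difference was 0.51 (SE 0.178, adjusted p 0.716 in limma). Gsx2, a homeobox factor of the lateral ganglionic eminence, differed by 0.38 (SE 0.172) and Olig2, a factor of ventral progenitors and the oligodendrocyte lineage, by 0.27 (SE 0.138). Without WT 38 these 3 differences were 0.58, 0.43 and 0.28. Genes of oligodendrocyte precursors were highest on CKO 1, at 0.19, and lowest on CKO 43, at -0.10, and meningeal and choroid plexus genes were highest on CKO 1, at 0.20, and lowest on WT 27, at -0.15.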
